A study of Mus musculus with 42 samples.

Results

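Adult mice smelled either a normal chow diet (NCD) or a bacon-flavoured diet (BFD) for 1 h, and the RNA held by ribosomes of odour-activated cells of the main olfactory epithelium was set against the RNA of the whole tissue. The comparison used 22 of the 42 libraries of the series, which come from 11 of its 21 pools: 5 BFD pools (numbered 1 to 5) and 6 NCD pools (numbered 1 to 6). Each pool held the epithelia of 4 male C57BL/6NCrl mice aged 8 to 12 weeks and gave a pulldown and an input library, so the replicate is the pool and not the animal. NCD was a standard maintenance chow, and BFD was the same chow with an artificial bacon flavour and matched nutrients. The other pools of the series, 5 exposed to no odour and 5 to the odour of a lard-based high-fat diet (HFD lard), were not compared here. They share the fit's estimate of spread, and their levels are given beside the results without a test.

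Each olfactory sensory neuron uses a single odorant receptor gene out of a very large family, so the receptor transcript labels the neurons that answer to an odour. Active neurons phosphorylate the ribosomal protein S6, and an antibody to phosphorylated S6 (pS6) pulls down their ribosomes with the messenger RNA on them. A receptor whose neurons were activated is therefore enriched in the pulldown over the input of the same pool. Receptor genes lie in genomic clusters, in which near-identical copies often stand side by side. The question is which receptors, and which other genes, had another pulldown-to-input ratio under BFD odour than under NCD odour.

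BFD odour raised the pulldown-to-input ratio of 5 olfactory receptors over their ratio under NCD odour, and lowered that of none of the 908 receptors tested. Olfr168, Olfr169, Olfr170 and Olfr171 are neighbours in a cluster of 8 receptors on chromosome 16, and the fifth, Olfr721-ps1, lies on chromosome 14. Olfr170 differed most, by 2.37 ± 0.19 on the log2 scale (SE of the fit; 5.16-fold). Among the 20260 other genes tested none was higher, and a single gene, Top1 (DNA topoisomerase I), was lower. A gene was called where the quasi-likelihood fit of edgeR gave a p under 0.05 after adjustment across the 21168 genes by the method of Benjamini and Hochberg. Over all genes, 0.0236% were called higher and 0.00472% lower, and at the stricter limit of 0.001 the share called higher was 0.00945% (Olfr170 and Olfr169). For the directions without a call, 20 receptors were lower and 741 other genes higher at an unadjusted p under 0.05, and DESeq2 with the same design called 0 and 3 of them.

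The receptors raised by BFD odour on chromosome 16 fall into near-identical copies, which can be seen at the start of their coding sequences. The first 75 coding bases of the 5 receptors with the higher ratios and of Olfr167, which stands between them, are shown 5′ to 3′ on the coding strand, from GENCODE transcripts on GRCm38. Capitals mark the bases that differ from Olfr170, or have no partner in it, when the whole coding sequences are aligned.
Olfr170: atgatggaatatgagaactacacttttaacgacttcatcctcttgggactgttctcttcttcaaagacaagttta
Olfr171: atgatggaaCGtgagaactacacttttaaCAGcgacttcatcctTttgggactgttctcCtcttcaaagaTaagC
Olfr169: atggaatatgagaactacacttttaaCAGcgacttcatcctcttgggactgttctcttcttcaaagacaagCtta
Olfr168: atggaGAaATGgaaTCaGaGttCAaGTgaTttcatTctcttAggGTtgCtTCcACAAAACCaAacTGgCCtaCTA
Olfr166: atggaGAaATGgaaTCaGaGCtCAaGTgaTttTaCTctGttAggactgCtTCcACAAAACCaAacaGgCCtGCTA
Olfr167: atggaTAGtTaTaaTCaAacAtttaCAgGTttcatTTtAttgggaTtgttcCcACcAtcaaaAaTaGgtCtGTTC
These stretches lie at chr16:19606592-19606666 (Olfr170), chr16:19625027-19625101 (Olfr171), chr16:19566807-19566881 (Olfr169), chr16:19530844-19530918 (Olfr168) and chr16:19515560-19515634 (Olfr167), all on the minus strand, and at chr16:19486840-19486914 (Olfr166) on the plus strand. Each is coding sequence within a single exon.

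Olfr169, Olfr170 and Olfr171 shared 96.2% to 97.4% of their aligned coding bases with each other, and Olfr166 shared 95.8% with Olfr168. Between these sets the identity was close to 60%. Olfr167 shared 68.7% with Olfr166 and Olfr168, and Olfr164 shared 89.9% with Olfr165 and under 60% with all the others. Of the coding 31-base words of the 5 receptors, 50.3% (Olfr169) to 65.5% (Olfr171) occurred also in a transcript of another gene, so that the division of their reads among copies rests on the authors' estimation. In Olfr167 this share was 0.11%, and in Olfr721-ps1 it was 0.

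In the chromosome 16 cluster, which runs from chr16:19284104 to 19629916, all 8 receptors passed the filter on low counts. A positive difference was found in 7 of the 8, against 56.7% of all receptors tested. Their median difference was 0.72 on the log2 scale, against 0.04 over all 908 receptors and 0.01 over all genes tested. This list was chosen with the called genes known, so the count carries no test.

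Olfr170 had log2 pulldown-to-input ratios of 1.66, 2.29, 2.32, 2.68 and 2.64 in BFD pools 1 to 5. In the NCD pools its ratios ran from −0.36 to 0.35, with a median of −0.11. Every BFD pool thus stood above every NCD pool, and pool 1 was the lowest of the BFD pools. Its pulldown level was 28.96 ± 6.97 CPM (counts scaled by library size; SD, n = 5) under BFD and 5.98 ± 0.76 (SD, n = 6) under NCD, whereas the input levels were 5.64 ± 0.90 and 6.14 ± 0.74. The difference of the ratios was 2.37 ± 0.19 (95% interval 1.97 to 2.76; adjusted p = 6.48e-08, edgeR). Without odour the mean ratio was −0.08 ± 0.28 (SD, n = 5) and under HFD lard odour 0.13 ± 0.43 (SD, n = 5).

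Olfr169 had ratios of 1.60, 2.22, 2.22, 1.97 and 2.26 in BFD pools 1 to 5. The NCD pools ran from 0.57 to 1.11, with a median of 0.94. The groups did not overlap. The no odour pools had a mean of 0.43 ± 0.21 (SD, n = 5) and the HFD lard pools of 1.12 ± 0.06 (SD, n = 5). The difference was 1.14 ± 0.12, a 2.20-fold higher ratio (adjusted p = 4.36e-06, edgeR). Its input levels were 10.7 ± 1.24 CPM under BFD and 11.6 ± 0.78 CPM under NCD, so the difference lay in the pulldown (45.7 ± 11.2 against 22.02 ± 1.96 CPM).

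Olfr171 and Olfr168 differed by smaller amounts. Olfr171 had ratios of 1.22, 2.02, 2.39, 1.91 and 2.08 in the BFD pools, and the NCD pools lay between 0.76 and 1.15. The difference was 0.96 ± 0.17 (1.95-fold; adjusted p = 0.0151, edgeR). Olfr168 had ratios of 1.02, 1.78, 1.58, 1.58 and 1.89, against 0.48 to 0.96 under NCD. Its difference was 0.82 ± 0.12 (1.77-fold; adjusted p = 0.00175, edgeR). For both receptors BFD pool 1 was the lowest of its group and close to the highest NCD pool, and the other 4 BFD pools stood clear of the NCD pools.

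Olfr166, the near-identical copy of Olfr168, did not pass the threshold with all pools. Its ratios were 0.94, 1.74, 1.76, 1.52 and 1.85 in BFD pools 1 to 5, and 0.82 to 1.10 in the NCD pools. BFD pool 1 lay inside the NCD range and the other 4 BFD pools above it. The difference was 0.61 ± 0.13 (adjusted p = 0.141, edgeR).

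Olfr167 lies between Olfr166 and Olfr168 and differed by −0.14 ± 0.13 (95% interval −0.40 to 0.13; adjusted p = 0.816). Its ratios in the BFD pools were 0.72, 1.34, 1.22, 1.27 and 1.30, inside or below the NCD range of 1.14 to 1.55. The 2 remaining members, at the other end of the cluster, had far fewer counts. Olfr164 had 19 to 30 pulldown counts under BFD and 21 to 34 under NCD, and differed by 0.60 ± 0.26 (adjusted p = 0.675). Its pulldown levels were 0.848 ± 0.176 and 0.850 ± 0.199 CPM, and its input level was lower under BFD (1.13 ± 0.22 against 1.69 ± 0.22 CPM). Olfr165 differed by 0.31 ± 0.36 (adjusted p = 0.852), with overlapping pools.

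**Figure D1:**
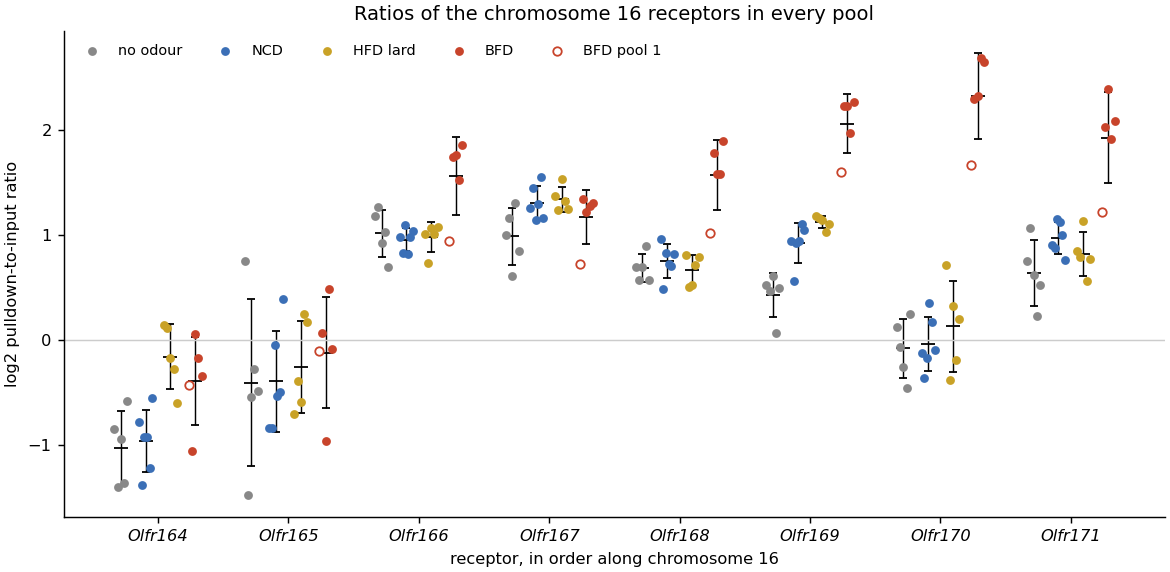
The vertical axis is the log2 pulldown-to-input ratio, and each point is 1 pool of the odour given by its colour (5 no odour, 6 NCD, 5 HFD lard and 5 BFD pools). Bars give the mean ± SD, and the open circle is BFD pool 1. For Olfr168 to Olfr171 all BFD pools lie above all NCD pools, for Olfr166 all but pool 1 do, and for Olfr164, Olfr165 and Olfr167 the groups overlap.

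Summing the counts of near-identical copies removes the choice of how reads were divided among them. For Olfr169, Olfr170 and Olfr171 together, the log2 ratio was 2.11 ± 0.32 (SD, n = 5) under BFD and 0.73 ± 0.17 (SD, n = 6) under NCD. The lowest BFD pool, pool 1, was at 1.55 and the highest NCD pool at 0.90. For Olfr166 and Olfr168 together, the ratios were 1.57 ± 0.35 and 0.86 ± 0.12, with BFD pool 1 at 0.98 and the highest NCD pool at 0.97. These 2 sums were defined with the result known and are given without a test. The whole cluster took 5.74 ± 0.71% of all receptor counts in the BFD pulldowns and 3.28 ± 0.07% in the NCD pulldowns. In the inputs its shares were 2.57 ± 0.06% and 2.59 ± 0.06%.

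Olfr721-ps1 (chr14:14401298-14410095, plus strand) was the only called receptor outside that cluster. Its symbol marks it as a pseudogene, but the annotation used here lists it as protein coding. Its ratios were 0.13, 0.56, 0.80, 0.65 and 0.34 in BFD pools 1 to 5, and −0.69 to 0.02 in the NCD pools, with no overlap. The difference was 0.90 ± 0.15 (1.87-fold; adjusted p = 0.00733, edgeR). Both sides of the ratio contributed. The pulldown level was 9.30 ± 1.42 CPM under BFD against 6.14 ± 0.57 under NCD, and the input level 6.52 ± 0.41 against 8.13 ± 1.08. In an exact two-sided permutation test over pools, the log2 CPM differed in the pulldowns (p = 0.00216, the smallest that 5 against 6 pools can give) and in the inputs (p = 0.0130). The gene was chosen by the ratio of these same values, so these p-values describe its sides and are no further support. The same holds for the permutation tests of Olfr1301 and Top1 below. The 2 other receptors within 1 Mb of it were not called, and the cluster's lowest difference was 0.04.

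**Figure D2:**
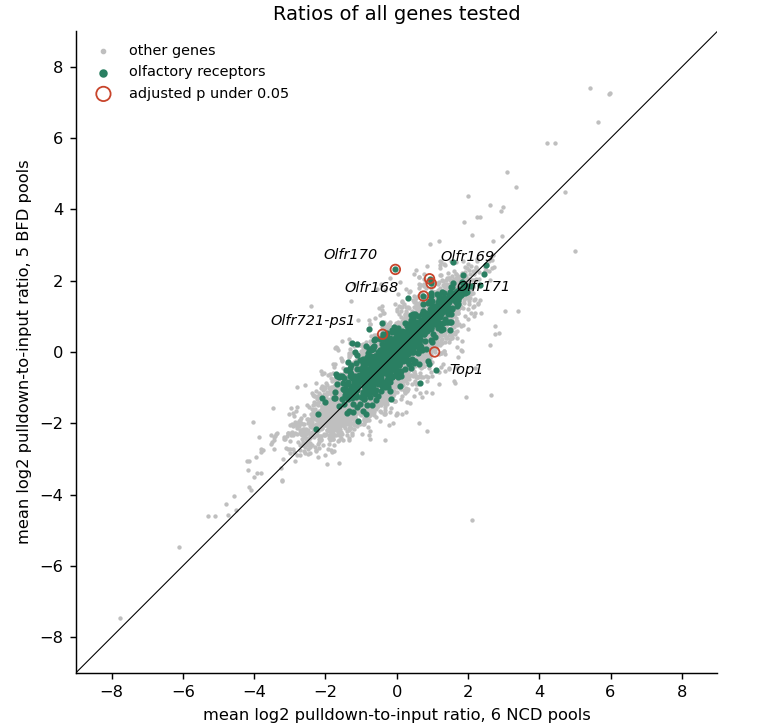
Each point is a gene, with its mean log2 pulldown-to-input ratio over the 6 NCD pools on the horizontal axis and over the 5 BFD pools on the vertical axis. The line marks equal ratios, green points are the 908 receptors and red rings the 6 genes called. The rings of the 5 receptors lie above the line and that of Top1 below it.

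No other receptor passed the threshold. The next was Olfr1301 (chr2:111751006-111758852), which differed by 0.49 ± 0.10 (adjusted p = 0.114, edgeR). Its BFD ratios of −0.07, 0.27, −0.01, −0.14 and 0.18 all lay above the NCD ratios, −0.61 to −0.24. Here the larger part of the difference was in the input, at 19.2 ± 1.69 CPM under BFD and 24.1 ± 1.47 CPM under NCD (exact permutation p = 0.00216), whereas the pulldown levels were 19.9 ± 2.26 and 17.7 ± 1.15 CPM (exact permutation p = 0.0779).

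Another 3 receptors had higher ratios without passing the threshold. These were Olfr734 (1.41 ± 0.41, adjusted p = 0.472), Olfr1344 (0.71 ± 0.21, adjusted p = 0.501) and Olfr329-ps (0.32 ± 0.10, adjusted p = 0.505). Olfr734 rested on 17 to 38 pulldown counts under BFD and 11 to 19 under NCD. Among the 10 receptors with the smallest p on the lower side, the adjusted p ran from 0.501 to 0.670. Olfr272 was the clearest of them in the pulldown, with 60 to 80 counts under BFD and 121 to 151 under NCD and no overlap of its ratios, and differed by −0.73 ± 0.23 (adjusted p = 0.513). Olfr545 differed by −1.84 ± 0.57 (adjusted p = 0.513) on 3 to 8 against 8 to 22 pulldown counts. At such counts a difference of this size did not pass the threshold.

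Over all receptors, 41 of 908 had an unadjusted p under 0.05 with a higher ratio and 20 with a lower one. Over all genes tested the corresponding shares were 3.69% and 3.55%. The receptors' share thus lay above that of all genes on the higher side and below it on the lower side, without a test. Both directions together made 6.72% of the receptors and 7.24% of all genes, so only their joint share lay near the background. The ratios of the BFD and NCD pools did not overlap in 7 receptors on the higher side (0.771% of the receptors, against 0.699% of all genes) and in 4 on the lower side (0.441%, against 1.19%). Of the 908 receptors, 493 (54.3%) had a 95% interval that lay within 1 log2 unit either way. For the other 415, Olfr170 among them, a difference of that size or more was not excluded. The median was 34 pulldown counts per tested receptor and library. A further 262 of the 1170 receptors in the table had too few counts to be tested.

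By position, receptors fell into 57 clusters when a gap over 1 Mb starts a new one, and 2 of the 49 clusters with a tested receptor held a called one. The class I receptors, an evolutionarily old class that is confined to a single cluster of chromosome 7, had a median difference of −0.01 over 98 tested, and 2 of them had an unadjusted p under 0.05 in each direction. In the largest cluster, on chromosome 2, 10 of 176 receptors had such a p with a higher ratio and 9 with a lower ratio. In the cluster from Olfr172 to Olfr209, also on chromosome 16, 20 of 24 differences were positive (against 56.7% of all receptors tested), with a median of 0.19 and none called.

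For the receptors as a whole no difference of the summed ratio was detected with all pools. All receptor counts together gave a log2 ratio of 0.40 ± 0.15 (SD, n = 5) under BFD and 0.42 ± 0.06 (SD, n = 6) under NCD (difference −0.02; exact permutation p = 0.773). With ribosomal RNA left out of the totals the difference was 0.05 (exact permutation p = 0.368), and with BFD pool 1 left out as well it was 0.09 (exact permutation p = 0.00476). Leaving out both was not planned. These sums include the chromosome 16 cluster, which took 5.74% of the receptor counts in BFD pulldowns and 3.28% in NCD pulldowns. The part of the cluster in the summed difference was not tested. Receptors took 0.372 ± 0.034% of the pulldown counts under BFD and 0.350 ± 0.022% under NCD (exact permutation p = 0.206). Without BFD pool 1 this share ran from 0.369% to 0.405% in the BFD pools, against 0.316% to 0.371% under NCD (exact permutation p = 0.0429). In the inputs they took 0.282 ± 0.013% and 0.262 ± 0.012% (exact permutation p = 0.0130).

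Top1, an enzyme that relaxes supercoiled DNA, was the only other gene called. Its log2 ratios were 0.01, −0.05, −0.15, 0.11 and 0.08 in BFD pools 1 to 5, and ran from 0.50 to 1.27 in the NCD pools, with a median of 1.17. The groups did not overlap, and the difference was −1.06 ± 0.16 (adjusted p = 0.00733, edgeR). The difference lay in the input and not in the pulldown. Input levels were 61.5 ± 4.99 CPM under BFD and 31.8 ± 8.50 CPM under NCD (exact permutation p = 0.00433), whereas pulldown levels were 61.5 ± 4.05 and 64.9 ± 4.22 CPM (exact permutation p = 0.186). The fitted difference among the pulldown libraries alone was −0.06 (adjusted p = 0.803, edgeR). The input level also varied widely within the other groups. It ran from 25.6 to 59.7 CPM without odour and from 34.1 to 57.8 CPM under HFD lard odour. The log2 ratios there ran from 0.27 to 1.41 and from 0.30 to 0.97.

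The same side of the ratio carried the other genes at the lower end. In all 10 non-receptor genes with the smallest p for a lower ratio, the input difference was larger in size than the pulldown difference, and 9 of the 10 had pools that did not overlap (against 1.19% of all genes). The genes were chosen by the p of these same ratios, so the count of pools apart carries no test. Besides Top1 these were Gm3667, Galnt14, Parp1, Tnfrsf18, Rab36, Ppig, Phf2os1, Rbm25 and Gm8281, with adjusted p from 0.0633 to 0.285. Ppig and Rbm25, which encode nuclear proteins of RNA splicing, had differences of −0.61 ± 0.14 and −0.49 ± 0.11. Ppig stood at 89.5 ± 1.86 CPM under BFD and 89.9 ± 7.97 under NCD in the pulldowns, and at 86.6 ± 9.68 against 57.1 ± 6.95 in the inputs. Parp1, a DNA-damage sensor, had input levels of 43.8 ± 0.89 against 33.4 ± 4.57 CPM. Gm3667 and Gm8281 are predicted genes of chromosome 14 with few counts (input 29 to 43 under BFD and 4 to 18 under NCD for Gm3667), and they share 31-base words with other genes, so their values are uncertain.

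Of the 10 non-receptor genes with the smallest p for a higher ratio, 6 had the larger difference in the pulldown, and none was called (adjusted p from 0.181 to 0.419). Of these, 8 have a symbol, and in 8 of the 10 the pools did not overlap (against 0.699% of all genes). As on the lower side, this count follows from the choice by p and carries no test. Cytl1, a secreted cytokine-like protein, was higher under BFD in both kinds of library, at 5.13 ± 1.51 against 0.864 ± 0.175 CPM in pulldown and 9.89 ± 1.09 against 3.75 ± 0.42 CPM in input. Its ratio differed by 1.14 ± 0.25 (adjusted p = 0.181). Tram1 and Spcs2, which act in the transfer of new proteins into the endoplasmic reticulum, differed by 0.31 ± 0.07 and 0.36 ± 0.09. Prpsap2, Nipa2 and Ttc30b differed by 0.26 to 0.31, and Cit by 0.55 ± 0.15. Sim1 had the largest difference, 3.26 ± 0.85, on at most 16 counts in any BFD pulldown and at most 2 in any NCD pulldown.

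**Figure D3:**
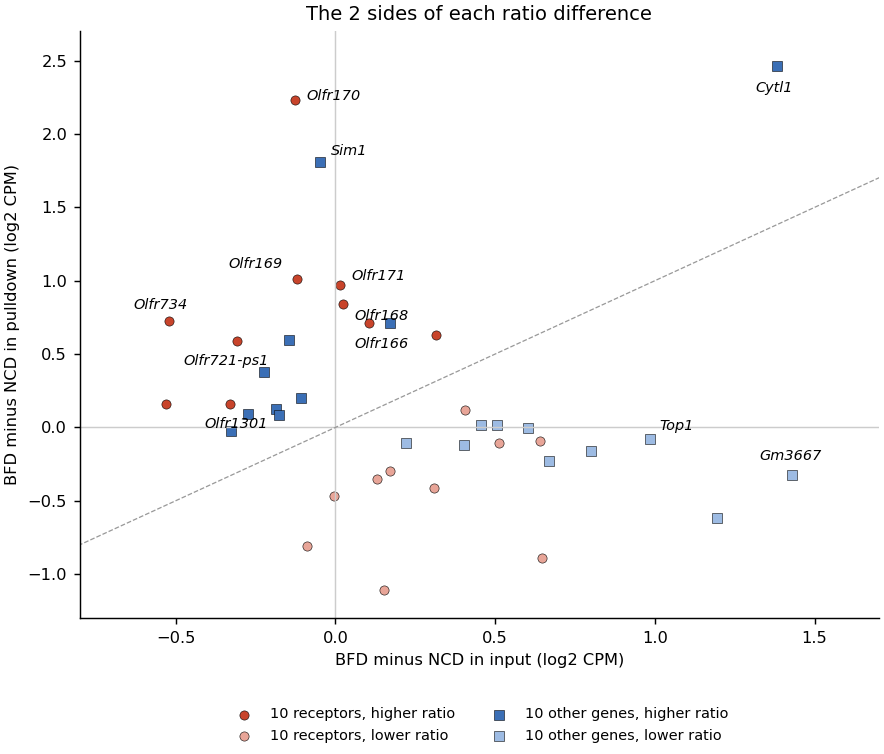
For the 40 genes with the smallest p (10 receptors and 10 other genes in each direction), the horizontal axis is the BFD minus NCD difference of the mean log2 CPM in the inputs and the vertical axis the same in the pulldowns. The dashed line marks equal differences, which leave the ratio unchanged. Olfr166, Olfr168, Olfr169, Olfr170 and Olfr171 lie near 0 on the input axis and high on the pulldown axis, and the other genes with lower ratios, Top1 among them, lie near or below 0 on the pulldown axis and to the right on the input axis.

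No gene of the 24 pathway lists was called by edgeR. Over all genes tested 52.3% of the differences were positive, and the counts of positive genes in the lists stand beside that share. At an unadjusted p under 0.05, the nuclear respiratory chain list held most genes with a higher ratio (14 of 73, against 3.69% of all genes), each other list held at most 4, and no list held more than 2 with a lower ratio (against 3.55% of all genes). The 2 highest medians among the pathway lists were those of genes of energy metabolism. All 13 protein-coding genes of the mitochondrial genome had positive differences, with a median of 1.04 against 0.01 over all genes tested. Without BFD pool 1 the median was 0.51 and 12 of the 13 were positive. Mitochondrial transcripts took 0.456% of the counts in the pulldown of BFD pool 1, 0.0468% to 0.289% in those of the other BFD pools and 0.0326% to 0.224% in those of the NCD pools. These shares overlapped between the odours (exact permutation p = 0.264, and 0.624 without BFD pool 1). The part of BFD pool 1 in the list's median can be read from the value without it. Among 73 nuclear-encoded subunits of the respiratory chain, 72 were positive with a median of 0.25. Their levels were lower under BFD in both kinds of library, with a median difference of −0.35 in the inputs and −0.10 in the pulldowns. The smallest p was that of Uqcrc1, of complex III (0.31 ± 0.10, adjusted p = 0.513).

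The 80 cytosolic ribosomal protein genes had 73 positive differences and a median of 0.12 (78 and 0.20 without BFD pool 1), with a median of −0.24 in the inputs and −0.10 in the pulldowns. Rps2 differed by 0.34 ± 0.14 (adjusted p = 0.675). In both lists, the side of the ratio that differed more between the odours was the input.

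Genes that sensory neurons use to turn odour into a signal had small differences. In the odour transduction list, which holds the cyclic nucleotide cascade behind the receptors, 10 of 13 genes were positive with a median of 0.08 (0.19 without BFD pool 1), and Cnga4, a channel subunit, differed by 0.17 ± 0.07 (adjusted p = 0.675). Immediate early genes, which active neurons transcribe within minutes, had 10 of 26 positive and a median of −0.05, and without BFD pool 1 these were 17 of 26 and 0.05. Egr2 differed by 0.56 ± 0.23 (adjusted p = 0.655) and Ccn1 by 0.45 ± 0.19 (adjusted p = 0.666). The mTOR and S6 list, which holds the kinases that act on S6, had 11 of 25 positive with a median of −0.03 (−0.06 without BFD pool 1). Feedback inhibitors of MAP kinase signalling had 3 of 13 positive with a median of −0.07 (−0.03 without BFD pool 1), and Spred3 differed by −0.60 ± 0.22 (adjusted p = 0.613). Axon guidance and identity genes, only some of which depend on neuronal activity, had 3 of 20 positive and a median of −0.13, which was −0.03 without BFD pool 1.

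Receptors of other kinds gave no call either. Of 14 trace amine-associated receptors, which detect amines, 8 were tested and 3 were positive, with a median of −0.03 (−0.12 without BFD pool 1). Taar7a differed by 1.07 ± 0.58 (adjusted p = 0.706), on 4 to 26 pulldown counts under BFD and 4 to 16 under NCD. Receptors for metabolic hormones had 6 of 12 positive and a median of 0.02 (−0.04 without BFD pool 1), with Glp1r, the receptor of glucagon-like peptide 1, at 1.05 ± 0.57 (adjusted p = 0.708). Glp1r rested on 16 to 30 pulldown counts under BFD and 3 to 18 under NCD. Lipid uptake and sensing genes had 11 of 19 positive and a median of 0.12 (0.05 without BFD pool 1), and Scarb1, a lipoprotein receptor, differed by 0.21 ± 0.11 (adjusted p = 0.703).

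Secreted and supporting-cell genes also gave no call. Lipocalins and odorant-binding proteins, which carry small hydrophobic molecules in mucus, had 2 of 11 positive and a median of −0.34 (−0.21 without BFD pool 1), whereas Lcn2 differed by 0.29 ± 0.11 (adjusted p = 0.655). Odorant-metabolizing enzymes had 27 of 29 positive and a median of 0.17. Without BFD pool 1 these were 20 of 29 and 0.06. Of 21 gland and mucus genes 13 were positive with a median of 0.03 (10 and −0.02 without BFD pool 1), with Ltf (lactoferrin) at −0.30 ± 0.08 (adjusted p = 0.441) and Muc5b, a gel-forming mucin, at −0.57 ± 0.17 (adjusted p = 0.501). The medians of the remaining lists lay between −0.08 and 0.20 and are plotted with the others.

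**Figure D4:**
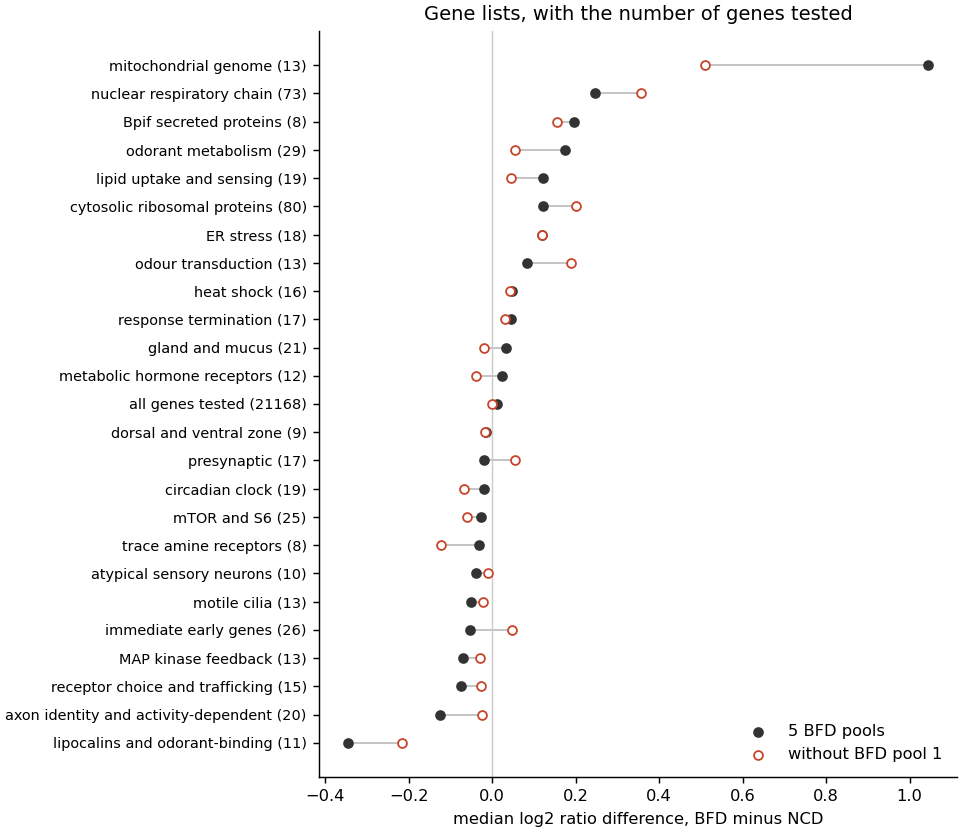
For each of 24 pathway lists and for all 21168 genes tested, the horizontal axis is the median of the log2 ratio differences (BFD minus NCD), with all 5 BFD pools (filled) and without BFD pool 1 (open). Numbers in brackets are the genes tested. The mitochondrial genome is at 1.04 and 0.51, and all other medians lie between −0.34 and 0.36.

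The tissue carried the markers of olfactory epithelium in every library. The 7 markers of mature olfactory sensory neurons, Omp among them, summed to 14249 to 15877 CPM in the BFD inputs and 15784 to 17278 CPM in the NCD inputs, and to 16924 to 23195 and 19877 to 22499 CPM in the pulldowns. Of the 19 marker lists, the B and plasma cell and the bone lists separated the odours without overlap in both kinds of library. The 5 B and plasma cell markers summed to 26.02 to 38.5 CPM in BFD pulldowns against 18.3 to 20.3 in NCD pulldowns, and to 25.6 to 31.1 against 13.2 to 16.6 in the inputs. Most of each sum came from a single gene, Igha, whose levels are given in the closing section. The 3 bone markers were lower under BFD, at 115 to 131 against 144 to 167 CPM in pulldowns and 137 to 154 against 162 to 189 CPM in inputs. Immature neuron markers were lower in the BFD inputs (529 to 599 against 637 to 704 CPM), though not separated in the pulldowns. The Bowman gland markers were higher in the BFD inputs (3864 to 4304 against 3072 to 3592 CPM). The inputs alone were also separated, and lower under BFD, for olfactory ensheathing cell markers (128 to 139 against 142 to 158 CPM) and microvillous cell markers (67.4 to 76.5 against 76.6 to 84.6 CPM). The share of all genes whose levels separate the odours likewise is not given here, so these separations carry no test. In tissue samples a change in the number of cells and a change in RNA per cell cannot be told apart. The ribosomal RNA share of the inputs was 11.8 ± 1.62% under BFD and 15.8 ± 2.44% under NCD (exact permutation p = 0.0152), and that of the pulldowns 14.6 ± 1.10% and 14.6 ± 4.18% (p = 0.996, exact permutation). The part of these differences in the ratios was not tested.

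BFD pool 1 stood apart from the other pools in how far its pulldown differed from its input. Over 292 genes depleted in pulldowns, chosen by a mean log2 ratio under −2 over the no odour, NCD and HFD lard pools, the median log2 ratio was −0.73 in this pool, −2.88 to −1.69 in the other BFD pools and −2.91 to −1.48 in the NCD pools. The SD of the ratios over all genes was 0.60 in pool 1, against 0.77 or more in the other pools compared. Without this pool, 6 receptors were called higher (0.0281% of the 21351 genes then tested). They were the 5 named above and Olfr166, whose difference was then 0.76 ± 0.10 (adjusted p = 2.42e-04, edgeR). All 6 genes called with every pool kept their call. Without pool 1 the difference of Olfr170 was 2.53 (adjusted p = 1.73e-09), of Olfr169 1.25 (7.05e-08), of Olfr168 0.96 (3.16e-06), of Olfr171 1.14 (1.46e-04) and of Olfr721-ps1 0.99 (0.00140), all by edgeR. That of Top1 was −1.06 (adjusted p = 0.0370).

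**Figure D5:**
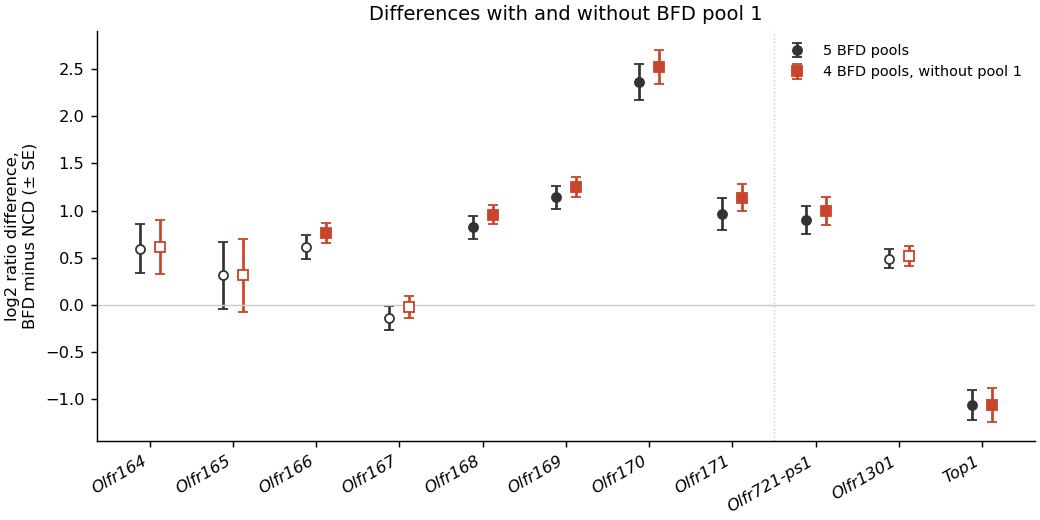
The vertical axis is the fitted log2 ratio difference, BFD minus NCD, with its SE, for the 8 receptors of the chromosome 16 cluster (left of the dotted line), for Olfr721-ps1, Olfr1301 and Top1. Black circles use all 5 BFD pools and red squares leave out BFD pool 1, with filled symbols where the adjusted p is under 0.05. Olfr166 is filled only without pool 1.

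Leaving out other single pools removed calls of the receptors with the smaller differences. Olfr168, Olfr169 and Olfr170 kept their calls without any of the 11 pools. The number of receptors called fell from 5 to 3 without BFD pool 3 and without BFD pool 4. The adjusted p of Olfr171 passed 0.05 without BFD pool 2 (0.0697), pool 3 (0.115), pool 4 (0.0592) or pool 5 (0.0928), and without NCD pool 2 (0.0536) or pool 6 (0.0739). That of Olfr721-ps1 passed it without BFD pool 3 (0.0594) or pool 4 (0.0526), and that of Top1 without BFD pool 3 (0.0518), all in edgeR's test.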

How the data were processed

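RNA of pS6 pulldowns and of whole epithelium (input) was sequenced by the authors as paired-end libraries, made with an amplification kit for low input that does not mark strand. The deposited values are estimated counts per gene, which the authors obtained with Salmon against GRCm38; 30.9% of the values were not whole, and they were rounded here. The table held 44674 genes in 42 libraries. Totals of the 22 libraries compared ranged from 28682738 to 33245368 in pulldowns and from 24839380 to 36245423 in inputs, and the number of counts sets the precision of each ratio. Gene names, types and positions came from GENCODE M21 (GRCm38), and 556 IDs (0.525% of the counts) had no name. The submitters' notes list DESeq2 1.26.

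Genes passing filterByExpr (minimum count 10) were normalized by TMM and fitted with edgeR 4.0.16 (R 4.3.3; robust quasi-likelihood) over all 42 libraries, with a term for each pool and a pulldown term for each odour. The contrast was the BFD minus the NCD pulldown term, in log2 units. Pulldown and input were paired by pool number. Deviations of a pool's pulldown and input from their group means correlated by 0.014 at the median, against −0.011 for different pools of a group, so the counts themselves show little pairing. Same-numbered BFD and NCD pools correlated by −0.21 to 0.06, so these numbers pair nothing between odours. Ratios per pool used log2 CPM with a prior count of 2. Single values were tested by exact two-sided permutation over pools (462 splits). The labels give the pools as separate samples but do not say that they came from separate days or litters, so p-values measure the spread between pools. Libraries of a group differed by more than sampling noise in all 50 pairs. Ribosomal RNA was the annotated rRNA genes with Lars2, Gm42418 and AY036118. Coding sequences were aligned with mafft 7.526. Named were the 10 receptors and 10 other genes with the smallest p in each direction, the chromosome 16 cluster, the list members with the smallest p, and genes whose call changes without BFD pool 1. The fit was tested on simulated data. The comparison, lists and rules were chosen with earlier results of these data known. Alternatives were other normalizations (DESeq2 1.42.0 size factors), tests (DESeq2, limma 3.58.1), filters, libraries and pairings.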

Additional observations from a re-analysis of the deposited data

Results flagged for a closer look

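In 3 cases the value of a single pool lay farther from the rest of their group than Dixon's 95% limit allows, of 38 groups of pools examined. Chance alone flags about 1 in 20 such groups. The log2 ratio of Olfr169 in NCD pool 2 was 0.57, below the 0.92 to 1.11 of the other NCD pools. The log2 ratio of Top1 in NCD pool 1 was 0.50, below the 1.04 to 1.27 of the other NCD pools. The log2 ratio of Olfr167 in BFD pool 1 was 0.72, below the 1.22 to 1.34 of the other BFD pools.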

How the results depend on the processing

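Olfr168, Olfr169 and Olfr170 were called in each of 24 settings. The count of other genes moved most: DESeq2 with the same design called 3 higher and 9 lower, DESeq2 on pulldowns with inputs as normalization factors 16 and 18, and the 22 libraries alone 6 and 21. Keeping every gene with 1 count gave 7 receptors and 1 other gene higher. Top1 lost its call there (adjusted p = 0.0579, edgeR), and the 1 other gene called lower was Gm3667 (adjusted p = 0.0214, edgeR). At an adjusted p under 0.001, 2 receptors were higher and 0 other genes lower. Leaving out BFD pool 1 and NCD pool 2 together, chosen after seeing the data, left 0 other genes lower. Pulldowns alone, without inputs, gave 10 receptors higher, 1 lower, 52 other genes higher and 22 lower. The lower receptor in this fit was Olfr272, at −0.80 (adjusted p = 0.00186, edgeR). There the differences reversed for Galnt14 (0.029), Ppig (0.0070), Rbm25 (0.034), Prpsap2 (−0.0075), Olfr1264 (0.15), Olfr167 (0.083) and Olfr165 (−0.067), and Olfr167 was also at 0.0080 without both pools. Olfr171 was not called by limma (adjusted p = 0.100). Olfr166 was called by DESeq2 with the same design (adjusted p = 0.0109), as was Olfr1301 (0.00971). The causes were not tested.

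With the replicate number as a block beside the pool term, 2 other genes were higher and 2 lower, the receptors called were 5, and all 6 calls were kept. Without the pool term, 6 receptors were called. Leaving out each pool in turn gave 3 to 6 receptors higher and 0 to 2 other genes lower. The summed receptor ratio difference then ran from −0.068 to 0.035, and was 0.048 without ribosomal RNA and 0.094 without BFD pool 1 as well, a combination that was not planned. The ribosomal RNA difference ran from −0.78 to 1.39 percentage points in pulldowns and from −4.69 to −3.30 in inputs. The 415 receptors whose interval reached 1 log2 unit include the called Olfr170, and the part of depth in these intervals was not tested.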

Other observations

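The immunoglobulin gene Igha, the heavy chain of IgA, was higher under BFD in both kinds of library without a call on its ratio. Its pulldown and input log2 CPM each separated the 5 BFD from the 6 NCD pools as far as an exact permutation test over pools can show (p = 0.00216 in each). These p-values are not adjusted for the choice of this gene among many. Its ratio differed by −0.25 ± 0.12 (adjusted p = 0.678, edgeR). Its levels were 27.97 ± 4.29 against 15.7 ± 0.79 CPM in pulldowns and 22.3 ± 2.07 against 10.6 ± 0.88 CPM in inputs. In the fit of the pulldowns alone 85 of 21168 genes were called. After Olfr170 the smallest p were, in order, those of Ighg2c, Mup5, Hspa1a, Ighg2b, 2310057J18Rik, Igha, Igkc, Klk14, Hspa1b and Car6. Apart from Igha, the directions of these genes are not given here. Over the 16 genes of the heat shock list the median pulldown difference was −0.19.

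The 3 horizontal basal cell markers, keratins and Trp63 of the stem cells at the base of the epithelium, had positive differences with a median of 0.68, which was 0.26 without BFD pool 1. In the pulldowns their sum was 5.51 to 15.6 CPM under NCD and 6.89 to 37.8 CPM under BFD, against 55.3 to 66.7 CPM in the inputs of both odours.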
